A study of Mus musculus with 19 samples.

Results

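The 36 genes described here encode lysosomal enzymes, their lumenal cofactors and proteins of the lysosomal membrane. They were taken as a list of symbols from the deposited gene tables, and all 36 were present among 14459 genes. Ribosome footprints, the mRNA fragments protected by ribosomes, and cytoplasmic RNA were sequenced from acute transverse brain slices of male C57BL/6 mice at postnatal days 28 to 35. The labels give the tissue as hippocampal-cortical slices, and the protocol describes hippocampal slices with CA3 cut off to enrich for CA1. The groups were Fmr1 KO mice, backcrossed onto C57BL/6, and wild-type (WT) mice. Fmr1 encodes FMRP, an RNA-binding protein whose loss causes fragile X syndrome. For each biological replicate 8 to 10 slices of 400 µm from 6 to 8 mice of a genotype were pooled, so a library is a pool of animals and not 1 animal. Slices of both genotypes recovered for 3 to 4 h at 30 °C and were treated with cycloheximide at 100 µg/ml, which holds ribosomes on the mRNA. RNA and footprints of a replicate came from the same lysate. Each assay had 3 KO and 4 WT libraries, and these are the n of every value below.

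Lysosomes degrade proteins, glycans, glycosaminoglycans and lipids in an acidic lumen. Their soluble enzymes are made at the endoplasmic reticulum (ER), carry mannose-6-phosphate in many cases, and reach the lysosome through sorting receptors. Loss of many of these enzymes causes lysosomal storage disease with degeneration of neurons, and within the brain microglia are known for high levels of several cathepsins. TFEB and related transcription factors bind E-box elements around the letters CACGTG near the start of many lysosomal genes.

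The total of estimated counts per library was 4.97 to 9.96 M for RNA, and for footprints it was 15.57 to 22.71 M. The lowest value of any of the 36 genes was 29.3 counts in RNA and 128.5 counts in footprints, both for Sgsh. The lowest values of Fmr1, the gene knocked out, were 40.4 and 138.7 counts. Counts alone therefore do not show how far the least abundant members lie above the limit of detection. As a check of the genotype, Fmr1 footprints were 4.81, 4.59 and 5.03 TPM (transcript abundance scaled for gene length and library size) in KO and 46.3, 44.7, 43.8 and 42.7 TPM in WT. The libraries match their labels for this gene. Values are scaled within each assay, so a shift shared by all genes cannot be seen, and the median log2 fold change of all genes was -0.00015 in footprints and -0.0049 in RNA. The tissue is bulk, so fewer cells of a type and less RNA per cell cannot be told apart.

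Promoter sequences from RefSeq (GRCm38.p6, 250 bases before to 50 after the start) were at hand for 32 of the 36 genes. The letters CACGTG, which read the same on both strands, were in 13 of these 32 genes (40.6%), against 11.3% of 10897 measured genes and 8.09% of all 27025 genes with a promoter. The longer form TCACGTG, searched on both strands and always containing CACGTG, was in 11 of the 32 (34.4%), against 6.59% of measured genes. The windows below are shown because these genes carry the shared letters and span the range of responses described later: Ctsd, Ctsf, Gaa and Sgsh had lower footprints in KO, and Lamp1, Mcoln1 and Naglu did not pass the test. Capitals mark 1 copy of CACGTG in each, and further copies in the windows of Lamp1 and Mcoln1 stand in lower case.
Ctsd (chr7:142387893-142387952, minus strand): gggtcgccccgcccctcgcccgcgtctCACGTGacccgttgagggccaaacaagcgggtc
Ctsf (chr19:4855059-4855118, plus strand): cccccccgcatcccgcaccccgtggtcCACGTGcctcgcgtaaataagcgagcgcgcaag
Gaa (chr11:119267796-119267855, plus strand): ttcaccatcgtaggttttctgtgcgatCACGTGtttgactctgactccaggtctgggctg
Sgsh (chr11:119355511-119355566, minus strand): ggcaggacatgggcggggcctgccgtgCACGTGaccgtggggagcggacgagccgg
Lamp1 (chr8:13159073-13159132, plus strand): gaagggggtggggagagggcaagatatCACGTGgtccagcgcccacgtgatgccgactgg
Mcoln1 (chr8:3500447-3500506, plus strand): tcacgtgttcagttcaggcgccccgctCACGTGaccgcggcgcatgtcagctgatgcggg
Naglu (chr11:101069994-101070053, plus strand): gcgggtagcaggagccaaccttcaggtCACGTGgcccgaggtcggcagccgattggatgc
A match of letters is a description and neither a bound site nor a cause. The median GC content of the 36 promoters of these genes was 56.8%, against 60.7% in measured genes.

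In WT slices these genes were expressed above the typical gene. Their median level was 87.4 TPM in RNA and 73.1 TPM in footprints, against 22.1 and 15.4 TPM for all genes, and 29 of the 36 lay above the all-gene median in each assay. Psap, the precursor of the saposin cofactors of sphingolipid breakdown, was highest at 1724 ± 90.1 TPM in RNA (mean ± SD) and 2862 ± 82.3 TPM in footprints. Ctsb, a cysteine protease, followed with 904 ± 40.3 TPM in RNA and 1096 ± 29.6 TPM in footprints. The third was Ctsd, the main aspartic protease of lysosomes, in RNA (554 ± 20.3 TPM) and Lamp1, an abundant membrane glycoprotein, in footprints (557 ± 16.4 TPM). At the low end were enzymes of glycan and glycosaminoglycan breakdown. Sgsh, Idua and Manba were lowest in RNA at 5.65 ± 0.502, 8.58 ± 0.526 and 10.1 ± 0.881 TPM. Naglu, Sgsh and Idua were lowest in footprints at 6.18 ± 0.589, 6.86 ± 0.560 and 7.74 ± 0.481 TPM, and neighbours in this order differed by less than 2 SDs.

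Footprints per RNA, the ratio of the TPM values in WT, differed 12.0-fold between members, with a median of 0.935 against 0.777 over all genes. Asah1, the acid ceramidase, had the highest ratio at 3.10 ± 0.185 (SD, n = 4), followed by Lamp2, a membrane protein needed for autophagy, at 2.90 ± 0.201. These first 2 differed by about their SDs. Ctsl, a cysteine protease, came next at 2.08 ± 0.0813, which was below both by more than the SDs. The lowest ratios were 0.258 ± 0.0166 for Smpd1, the acid sphingomyelinase, 0.276 ± 0.0256 for Fuca1, which removes fucose from glycans, and 0.332 ± 0.0275 for Hexa, the alpha subunit of beta-hexosaminidase A. Smpd1 RNA was thus abundant (212 ± 6.41 TPM) while its footprints were below the members' median (54.6 ± 3.11 TPM).

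**Figure D1:**
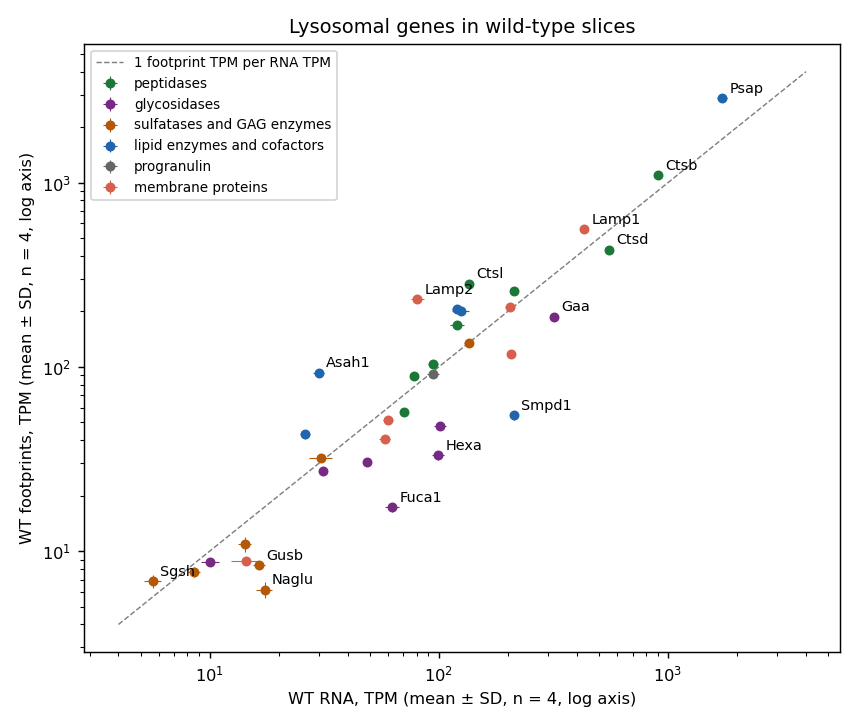
Level of each of the 36 genes in WT slices, with RNA on the horizontal and footprints on the vertical axis (TPM, both log axes); points are means of 4 libraries, bars the SD, and colours the role. The dashed line marks 1 footprint TPM per RNA TPM: Asah1, Lamp2 and Ctsl lie farthest above it, and Smpd1, Fuca1 and Hexa farthest below.

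In KO slices most lysosomal genes had lower footprints than in WT. All 36 had a log2 fold change below 0, against 50.0% of all genes. Of the 36, 22 (61.1%) passed the test as lower (edgeR, adjusted p under 0.05 over 14438 genes) and 0 as higher. Over all genes tested 18.5% were called, 10.4% lower and 8.15% higher. These shares are not at equal precision: the median SE was 0.044 for the 36 genes and 0.054 for all genes. The median log2 fold change of the 36 was -0.17, with single values from -0.30 to -0.028, and 12.0% of all genes lay below that median. At an unadjusted p under 0.05, 28 were lower and 0 higher, against 16.0% and 15.3% of all genes. In 26 of the 36 the highest KO library was lower than the lowest WT library, as in 15.6% of all genes. These were the 22 that passed and Ctsa, Ctsz, Glb1 and Lamp1. The changes were small in size: the summed footprints of the 36 genes were 6547, 6992 and 6973 TPM in KO and 7803, 8029, 7803 and 7639 TPM in WT, a mean 12.6% lower, and the groups did not overlap. Psap and Ctsb made up much of these sums, with means of 2446 and 923 TPM in KO and 2862 and 1096 TPM in WT. KO replicate 1 was the lowest of the 3 KO sums. Without it the median was -0.14, 34 of the 36 lay below 0 and 17 genes passed as lower.

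**Figure D2:**
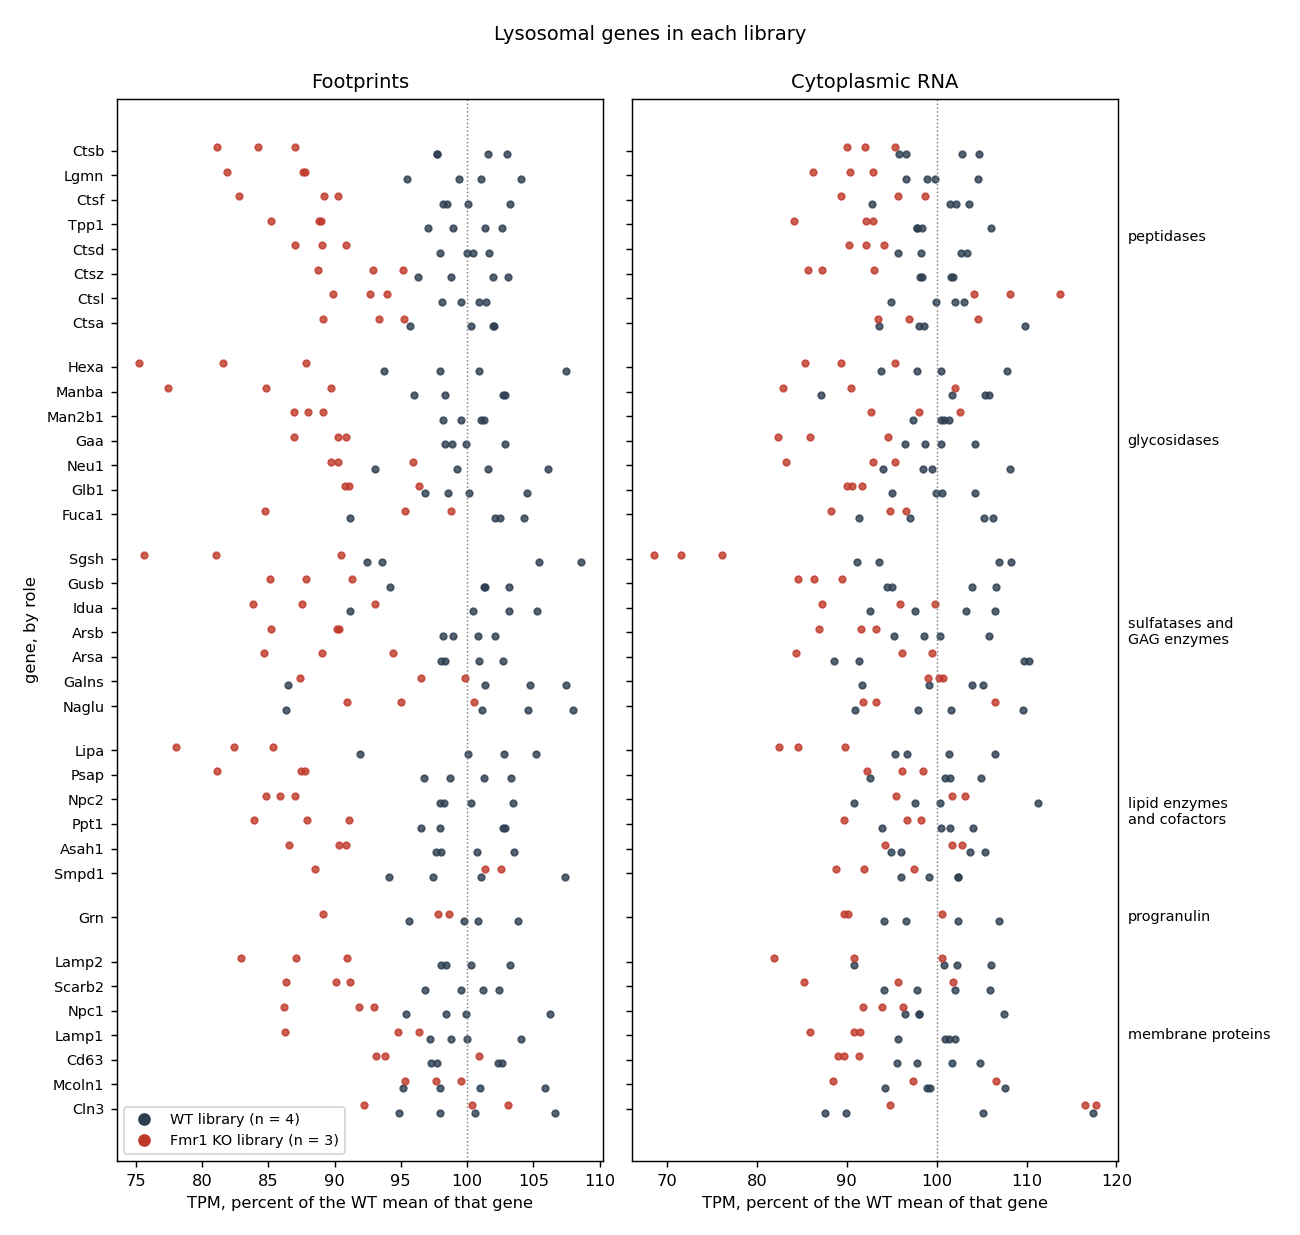
Level of each gene in each library, as percent of that gene's WT mean (TPM), for footprints (left) and cytoplasmic RNA (right), ordered by role; dark points are WT libraries (n = 4) and red points KO libraries (n = 3). On the footprint side the KO points of 26 genes lie wholly left of the WT points, on the RNA side those of 14.

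Peptidases of the lysosome lumen were lower in 6 of 8 genes (median -0.19). Ctsb (chr14:63122462-63145923) had footprints of 890.0, 954 and 924 TPM in the KO libraries and 1071, 1129, 1114 and 1071 TPM in the WT libraries, which is -0.26 ± 0.041 on the log2 scale (fold change ± SE; adjusted p = 0.00224). The groups were well apart, with the highest KO library below the lowest WT library by more than the range of either group. Lgmn (chr12:102394082-102439728), the asparagine endopeptidase that processes other cathepsins, stood at 211, 226 and 226 TPM in KO and 256, 269, 261 and 246 TPM in WT (-0.23 ± 0.044; adjusted p = 0.00507). Ctsf (chr19:4855165-4860918), another cysteine protease, gave 86.3, 94.1 and 93.0 TPM against 103, 108, 102 and 104 TPM (-0.20 ± 0.044; adjusted p = 0.00913). In both genes every KO library was below every WT library, and KO replicate 1 was the lowest. Tpp1 (chr7:105744811-105752282), a tripeptidyl peptidase lost in a childhood neuronal ceroid lipofuscinosis, had 76.2, 79.4 and 79.5 TPM in KO and 88.4, 90.6, 91.7 and 86.7 TPM in WT (-0.20 ± 0.038; adjusted p = 0.00477). Ctsd (chr7:142375910-142387827) had 376, 385 and 393 TPM and 432, 434, 439 and 423 TPM (-0.18 ± 0.035; adjusted p = 0.00575). Neither gene's groups overlapped, and the WT libraries of Ctsd spread over a narrow range. Ctsl (chr13:64361890-64370772) had 254, 266 and 262 TPM in KO and 281, 285, 287 and 277 TPM in WT (-0.13 ± 0.035; adjusted p = 0.0277). Its groups did not overlap, but the call was lost without KO replicate 1 or 3 or WT replicate 1, 2 or 3 (adjusted p 0.0550 to 0.0943). The remaining 2 peptidases, the carboxypeptidases Ctsz and Ctsa, did not pass, with log2 fold changes of -0.13 ± 0.044 and -0.12 ± 0.041 (adjusted p = 0.0669 and 0.0621). DESeq2 called Ctsa lower, and with the length trend removed both were called lower.

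Of 7 glycosidases, which remove sugars from glycoproteins, glycolipids or glycogen, 4 were lower (median -0.17). Hexa (chr9:59539540-59565109), deficient in Tay-Sachs disease, had the most negative log2 fold change of the 36 genes in footprints. Its libraries gave 24.9, 27.0 and 29.0 TPM in KO and 33.3, 35.5, 31.0 and 32.3 TPM in WT (-0.30 ± 0.065; adjusted p = 0.00859). Manba (chr3:135485611-135571404), the beta-mannosidase, was much less abundant, at 6.76, 7.83 and 7.40 TPM in KO and 8.38, 8.98, 8.96 and 8.58 TPM in WT (-0.26 ± 0.059; adjusted p = 0.00983). Both genes showed no overlap, with the lowest value in KO replicate 1. Man2b1 (chr8:85082730-85098739), the lysosomal alpha-mannosidase, had tight groups, 26.3, 26.7 and 27.0 TPM in KO and 29.7, 30.7, 30.6 and 30.2 TPM in WT (-0.19 ± 0.035; adjusted p = 0.00394). Gaa (chr11:119267963-119285458), the acid alpha-glucosidase that degrades glycogen and is deficient in Pompe disease, gave 163, 170.5 and 169 TPM and 185, 193, 187 and 184 TPM (-0.17 ± 0.037; adjusted p = 0.00915). Again no KO library reached the lowest WT library. The beta-galactosidase Glb1 (-0.12 ± 0.041), the sialidase Neu1 (-0.13 ± 0.051) and Fuca1 (-0.11 ± 0.063) did not pass, with adjusted p of 0.0662, 0.104 and 0.257, although Glb1 passed without KO replicate 2.

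Among 7 sulfatases and enzymes of glycosaminoglycan breakdown, 4 were lower (median -0.18). Arsb (chr13:93771679-93943016), a sulfatase for dermatan and chondroitin sulfate, was the most abundant of these, with 115, 122 and 122 TPM in KO and 134, 136, 133 and 138 TPM in WT (-0.18 ± 0.039; adjusted p = 0.00799). Its groups did not overlap and the call held without any single library. Sgsh (chr11:119343489-119355510), the heparan sulfamidase, had 5.19, 6.21 and 5.56 TPM in KO and 6.34, 7.23, 6.42 and 7.44 TPM in WT (-0.28 ± 0.084; adjusted p = 0.0365). The highest KO value, in replicate 2, came close to the WT values of replicates 1 and 3. Arsa (chr15:89472476-89477424), the sulfatidase deficient in metachromatic leukodystrophy, gave 28.4, 30.2 and 27.1 TPM and 31.4, 31.3, 32.2 and 32.8 TPM (-0.17 ± 0.043; adjusted p = 0.0192). Gusb (chr5:129989011-130003049), the beta-glucuronidase, gave 7.63, 7.35 and 7.12 TPM and 8.48, 7.87, 8.47 and 8.62 TPM (-0.19 ± 0.048; adjusted p = 0.0339). In both the groups did not overlap, though the gap was smaller than the KO range. Calls of these last 3 genes depended on single libraries. Sgsh was lost without KO replicate 1 or 3 or WT replicate 2 or 4 (adjusted p 0.0765 to 0.171). Arsa was lost without KO replicate 1 or 3 or WT replicate 4 (0.0577 to 0.0825). Gusb was lost without any 1 of the KO libraries or WT replicate 1, 3 or 4 (0.0589 to 0.111). DESeq2 did not call Sgsh and Gusb either (adjusted p = 0.0922 and 0.153). Idua, an iduronidase, and Galns and Naglu, which act on keratan and heparan sulfate, did not pass, at -0.19 ± 0.065, -0.093 ± 0.073 and -0.079 ± 0.075 (adjusted p = 0.063, 0.453 and 0.547), although Idua passed without WT replicate 4.

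Of 6 lipid hydrolases and lipid-binding cofactors 5 were lower (median -0.21). Psap (chr10:60277628-60302600), the most abundant of all 36, had 2322, 2513 and 2503 TPM in KO and 2899, 2956, 2825 and 2769 TPM in WT (-0.23 ± 0.046; adjusted p = 0.00575). Npc2 (chr12:84754559-84773112), the lumenal cholesterol carrier, stood at 171, 175 and 173 TPM in KO and 202, 198, 208 and 197 TPM in WT (-0.23 ± 0.036; adjusted p = 0.00203). The 3 KO libraries of Npc2 were close together and far below the WT libraries. Lipa (chr19:34492316-34527474), the acid lipase for cholesteryl esters and triglycerides, gave 33.7, 35.6 and 36.9 TPM against 44.4, 45.4, 43.2 and 39.7 TPM (-0.29 ± 0.056; adjusted p = 0.00472). Ppt1 (chr4:122836077-122859175), a thioesterase that removes palmitate from proteins, gave 172, 187 and 180.1 TPM against 198, 211, 201 and 211 TPM (-0.20 ± 0.044; adjusted p = 0.00976). In these genes too, every KO library was below every WT library, and in Lipa WT replicate 4 was the lowest of its group. Asah1 (chr8:41340646-41397644) had 80.4, 83.9 and 84.4 TPM in KO and 93.6, 91.1, 90.7 and 96.2 TPM in WT (-0.17 ± 0.039; adjusted p = 0.0111), with no overlap. Smpd1 did not pass, and its groups overlapped (-0.045 ± 0.063; adjusted p = 0.718).

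Of 7 membrane proteins 3 were lower, with a median of -0.12, and whether this differs from the lumenal proteins was not tested. Lamp2 (chrX:38399647-38456460) had 194, 203 and 212 TPM in KO and 241, 234, 229 and 229.8 TPM in WT (-0.21 ± 0.043; adjusted p = 0.00684). Scarb2 (chr5:92441311-92505657), the receptor that carries glucocerebrosidase to the lysosome, had 182, 190.1 and 192 TPM and 204, 216, 210.0 and 214 TPM (-0.17 ± 0.039; adjusted p = 0.0102). The groups of both were separate, by a gap wider than the WT range in Lamp2 and close to it in Scarb2. Npc1, the membrane partner of Npc2 in cholesterol export, was at 44.1, 47.1 and 47.6 TPM in KO and 51.2, 54.5, 50.4 and 48.9 TPM in WT (-0.15 ± 0.048; adjusted p = 0.0451). Its groups did not overlap, though the gap was smaller than the range of either, and the call was lost without KO replicate 1 or 2 or WT replicate 1, 2 or 3 (adjusted p 0.0541 to 0.163), with limma (0.0522) and with the length trend removed (0.148). Lamp1 gave 481, 528 and 537 TPM in KO and 557, 579.8, 550.2 and 541 TPM in WT, which did not overlap but did not pass (-0.12 ± 0.049; adjusted p = 0.114). The tetraspanin Cd63 (-0.068 ± 0.045), the cation channel Mcoln1 (-0.043 ± 0.044) and Cln3 (-0.028 ± 0.065), a membrane protein lost in juvenile neuronal ceroid lipofuscinosis, did not pass, with adjusted p of 0.35, 0.587 and 0.883. Progranulin (Grn), a secreted and lysosomal protein whose loss causes a ceroid lipofuscinosis or frontotemporal dementia, was at -0.079 ± 0.048 (adjusted p = 0.309).

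In cytoplasmic RNA 0 of the 36 genes passed the edgeR test in either direction, although most values were below 0. Over all 13877 genes tested, 4.89% were called, 2.77% lower and 2.11% higher. At an unadjusted p under 0.05, 14 of the 36 were lower and 0 higher, against 10.8% and 9.66% of all genes. DESeq2 called 2 as lower (Gaa and Lamp1), and limma called 1 (Sgsh). A log2 fold change below 0 was found for 33 of 36, against 51.3% of all genes, with a median of -0.10, and 14 members had all KO libraries below all WT libraries (10.0% of all genes) and 1 had all above (9.03%). The summed RNA of the 36 genes was 5943, 6032 and 6102 TPM in KO and 6411, 6553, 6655 and 6193 TPM in WT, 6.63% lower in the mean, and the groups did not overlap. Psap and Ctsb were the largest parts here too, with means of 1648 and 836 TPM in KO and 1724 and 904 TPM in WT. The RNA estimates were less precise than those of footprints. The median SE was 0.065 in RNA and 0.044 in footprints, and the SE was larger in RNA for 35 of 36 genes.

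Single genes show how RNA and footprints compared. Sgsh RNA was 4.04, 3.87 and 4.30 TPM in KO and 5.29, 6.12, 5.15 and 6.04 TPM in WT (-0.46 ± 0.12; adjusted p = 0.11), the most negative value of the 36 in RNA. The groups did not overlap, at the lowest RNA level of all members. Gaa RNA was 274, 262 and 301 TPM in KO and 332, 320.1, 315 and 307 TPM in WT (-0.19 ± 0.057; adjusted p = 0.0678), and it passed without KO replicate 3. Lamp1 RNA was 393, 390.4 and 369.7 TPM in KO and 411, 439, 436 and 434 TPM in WT (-0.17 ± 0.051; adjusted p = 0.0771). In both the KO libraries were all below the WT libraries. Npc2 RNA, in contrast to its footprints, was 119, 127 and 128 TPM in KO and 113, 139, 122 and 125 TPM in WT (0.0068 ± 0.078), and the groups overlapped. Ctsl was the 1 member with every KO library above every WT library in RNA, at 142, 155 and 147 TPM against 139, 136, 140.1 and 129 TPM (0.12 ± 0.061; adjusted p = 0.279), while its footprints were lower.

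The test of whether the footprint change differed from the RNA change, an interaction of assay and genotype often called translational efficiency, called 0 of the 36 genes with edgeR, DESeq2 or limma. Over all genes the edgeR test called 5 of 14435 (0.0346%), with 0.0208% lower and 0.0139% higher. At an unadjusted p under 0.05, 5 members were lower and 0 higher, against 5.84% and 4.99% of all genes. Ctsl, whose RNA and footprints lay on opposite sides of 0, had -0.25 ± 0.069 (log2 change of footprints relative to RNA; unadjusted p = 0.00136, adjusted p = 0.127). Npc2 had -0.24 ± 0.082 (unadjusted p = 0.0074, adjusted p = 0.237). Man2b1, Psap and Ctsb had -0.17, -0.17 and -0.15, with adjusted p of 0.301, 0.375 and 0.436. None of these passed the adjustment. The interaction was below 0 in 26 of 36 members, against 53.1% of all genes, with a median of -0.075, and the footprint change was more negative than the RNA change in 25. A fall in footprints beyond that in RNA was therefore not detectable for any single member at this precision.

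**Figure D3:**
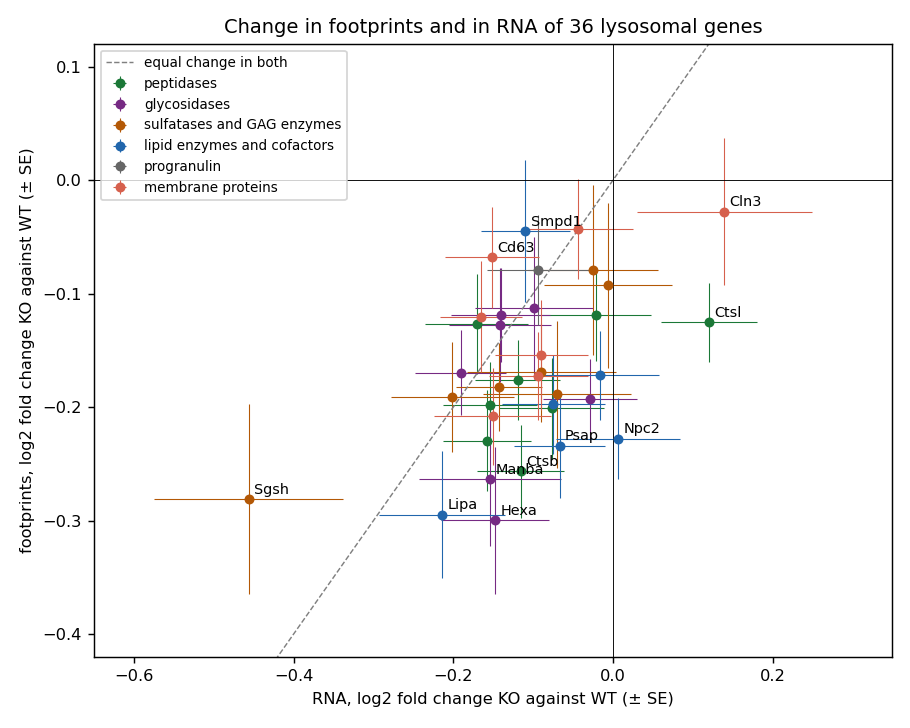
Log2 fold change of KO against WT in RNA (horizontal) and in footprints (vertical) for each of the 36 genes, with SE bars from edgeR and colours by role; the dashed line marks an equal change in both. All points lie below 0 on the vertical axis, Ctsl, Npc2 and Cln3 lie right of 0 on the horizontal axis, and Sgsh lies farthest to the left.

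**Figure D4:**
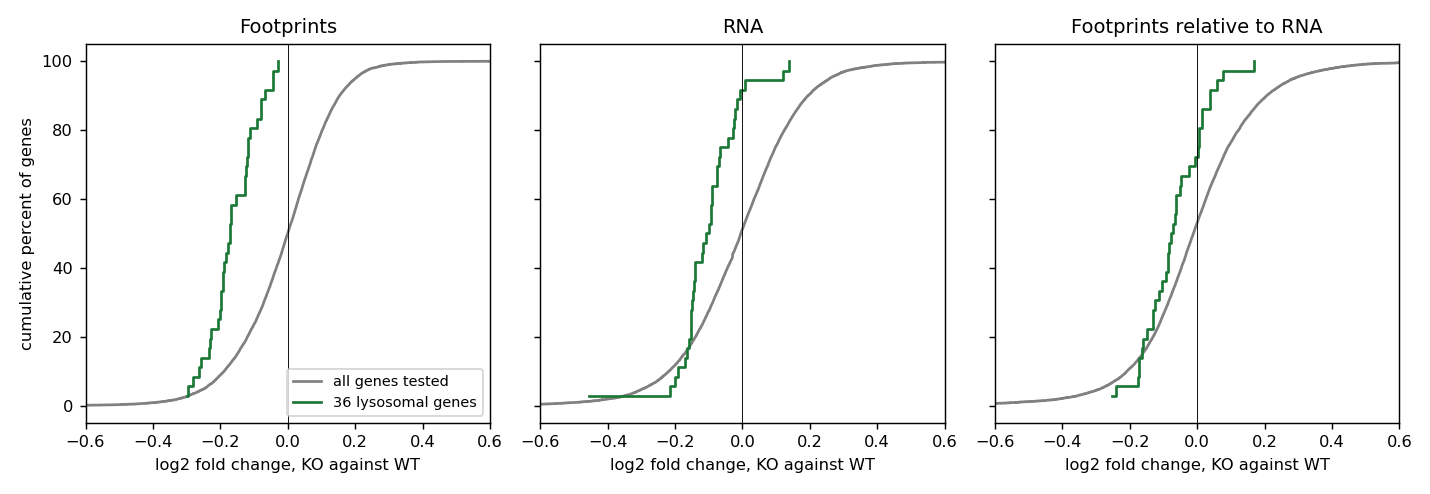
Cumulative percent of genes by log2 fold change of KO against WT, for footprints, RNA and footprints relative to RNA; green lines are the 36 lysosomal genes and grey lines all genes tested. The member medians are -0.17, -0.10 and -0.075, and the all-gene lines cross 50% near 0 in each panel.

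Members were also set against their WT footprint per RNA ratio. Of 17 members with a ratio above 1, 15 passed as lower in KO footprints, with a median log2 fold change of -0.20; of 19 at or below 1, 7 passed, with a median of -0.13. Across the 36 genes the footprint change and the WT ratio had a Spearman rho of -0.44 and a Pearson r of -0.38, against a rho of 0.015 over all genes. These values share the WT footprint libraries, and members are not replicates, so this is a description with no test. Gene length showed little relation to the change (rho 0.082), and the 36 genes lie on 17 chromosomes. By promoter letters, 7 of the 13 genes with CACGTG passed as lower (median -0.13 in footprints and -0.090 in RNA) and 12 of the 19 without it (median -0.19 and -0.14). Ctsd, Ctsf, Gaa and Sgsh, shown above with the letters, were among those that fell, as were Psap, Npc2 and Hexa, which lack them in the window read.

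Other lysosomal genes outside the list were read from the same fit, in which 10.4% of all genes were lower and 8.15% higher in KO footprints. A further list of 29 other lysosomal enzymes and cofactors was not checked gene by gene for a place in lysosomes. Of these genes, 15 were lower in KO footprints and 0 higher (median -0.17). They included the carboxypeptidase Cpq (-0.35 ± 0.044; adjusted p = 8.28e-04), the dipeptidyl peptidase Ctsc (-0.36 ± 0.056; 0.00203), Gpld1 (-0.26 ± 0.043; 0.00259) and the cysteine protease Ctso (-0.24 ± 0.045; 0.00426). Of 25 other lysosomal membrane proteins and transporters 5 were lower and 0 higher (median -0.096), among them Lamp5 (-0.29 ± 0.038; 9.33e-04), Tmem63a (-0.25 ± 0.048; 0.0048), Cd164 (-0.20 ± 0.047; 0.0145) and Laptm4a (-0.14 ± 0.040; 0.0332). This last count was 3 without WT replicate 2 or WT replicate 4, and the Laptm4a call was lost without KO replicate 1 or 2 or WT replicate 1, 2 or 4. For the other enzymes and cofactors, the count of 15 fell to 10 without KO replicate 1 (median -0.13). DESeq2 called 11 of the 26 of them to which it gave an adjusted p in footprints.

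Of 31 measured genes of enzyme sorting and lysosome biogenesis, 5 were lower and 1 higher in KO footprints, against 10.4% and 8.15% of all genes, and 21 lay above 0 (median 0.046). The 4 with the smallest p are named here. M6pr and Igf2r, the mannose-6-phosphate receptors, had -0.21 ± 0.041 and -0.19 ± 0.039 (adjusted p = 0.00619 and 0.0065). The sorting receptor Sort1 had -0.18 ± 0.035 (0.00521), and Sumf1, which activates sulfatases, had -0.19 ± 0.045 (0.0122). The 1 higher gene was Tfeb, the transcription factor named above, singled out after its values were seen. Its footprints were 8.94, 8.13 and 7.92 TPM in KO and 6.37, 6.42, 7.40 and 7.12 TPM in WT (0.27 ± 0.064; adjusted p = 0.0135), every KO library above every WT library. Its RNA overlapped between the groups (-0.055 ± 0.098; adjusted p = 0.83). The Tfeb call was lost without KO replicate 1 (adjusted p = 0.0822), which also ended the Sumf1 call and left 3 genes of the list lower, and with DESeq2 (0.0609). Without KO replicate 2, 2 genes of the list were higher. The edgeR interaction of assay and genotype called 0 of the 31 genes, and so not Tfeb (smallest adjusted p = 0.207), against 0.0346% of all genes. ER folding and translocation genes, which handle all proteins entering the secretory pathway, were lower in 23 of 30 (median -0.21) and higher in 0. Examples were the glycoprotein folding sensor Uggt1 (-0.26 ± 0.036; 0.00119), the chaperones Hyou1 (-0.33 ± 0.049; 0.00167) and Hspa5 (-0.41 ± 0.064; 0.00203), and the glucosidase subunit Ganab (-0.21 ± 0.038; 0.00359). The ER count was 14 without KO replicate 1.

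Microglial markers were also lower in KO footprints. As percent of the WT mean, summed lysosomal footprints were 83.7, 89.4 and 89.2 in KO replicates 1, 2 and 3. The microglial sums were 87.2, 83.4 and 87.1 in that order. In RNA the lysosomal sums were 92.1, 93.5 and 94.6 and the microglial sums 85.8, 86.2 and 89.4. The lowest KO library thus differed between the lists in footprints and was replicate 1 for both in RNA. For all marker lists here, the shares over all genes tested were 10.4% lower and 8.15% higher in footprints, and 2.77% lower in RNA. Of 20 microglial markers, chosen without lysosomal genes, 14 were lower in KO footprints and 0 higher (median -0.22). In RNA 9 of them were lower (median -0.22). Their summed footprints were 690.2 to 722 TPM in KO and 814 to 837 TPM in WT, and their summed RNA 935 to 974 TPM in KO and 1084 to 1103 TPM in WT. Examples in footprints were Selplg (-0.35 ± 0.042; 6.18e-04), Olfml3 (-0.39 ± 0.047; 6.35e-04) and the complement genes C1qa (-0.31 ± 0.040; 9.33e-04) and C1qb (-0.29 ± 0.045; 0.00209). The RNA count of 9 fell to 2 without KO replicate 1 and to 2 without KO replicate 2. It was 4, 5, 3 and 4 without WT replicates 1, 2, 3 and 4, in that order. DESeq2 called 9 of the 19 microglial markers to which it gave an adjusted p in footprints, and 5 of 10 in RNA. Fibroblast markers were lower in 7 of 8 genes in footprints (median -0.33), with sums of 265 to 276 TPM in KO and 334 to 374 TPM in WT. Oligodendrocyte markers were lower in 6 and higher in 1 of 10, with sums of 13553 to 14173 TPM in KO and 13856 to 15428 TPM in WT, and the lower count was 3 without any 1 of the KO libraries or WT replicate 2 or 4, while the higher count was 0 without KO replicate 1 or WT replicate 1, 2 or 4. Endothelial markers were lower in 3 of 10, and in 0 without KO replicate 2 or KO replicate 3, and 1 without WT replicate 3. Astrocyte markers were lower in 2 and higher in 1 of 10, and 4 of 8 listed choroid plexus markers were in the tables, with 1 lower and 1 higher in footprints. The lower count was 0 without KO replicate 1 or 2 or WT replicate 2, 3 or 4. Neuron markers were lower in 0 and higher in 2 of 10 (1 without KO replicate 1 or 2 or WT replicate 1, 2 or 4; without KO replicate 1, 1 was lower), with summed footprints of 12226 to 12585 TPM in KO and 12271 to 12432 TPM in WT. No marker of any list was at 0 in any library. This held for every gene measured, as the lowest TPM was 0.880 in RNA and 0.928 in footprints. The absence of zeros therefore does not show that a marker was detected. The lowest values of endothelial and choroid plexus markers were 1.32 and 1.31 TPM. The part of these cell types in the lysosomal result was not tested.

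**Figure D5:**
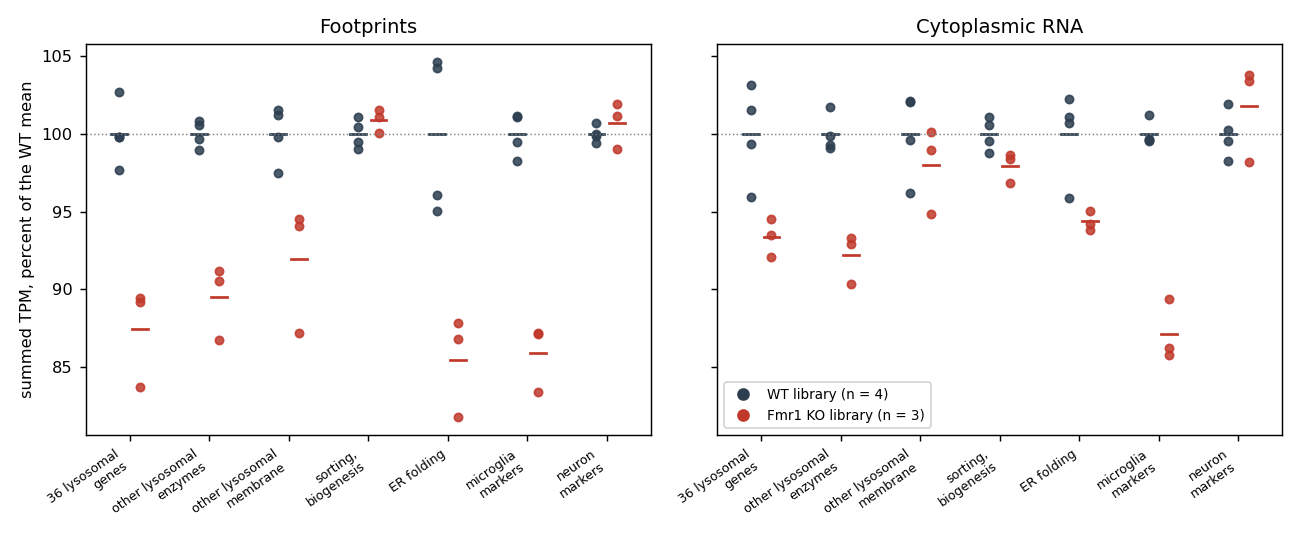
Summed TPM of each gene list in each library, as percent of the WT mean of that list, for footprints (left) and RNA (right); points are libraries (WT n = 4, KO n = 3) and bars the group means, on an axis that does not start at 0. In footprints the 36 lysosomal genes, other lysosomal enzymes, other lysosomal membrane genes, ER genes and microglial markers are lower in every KO library. The footprint sums of sorting genes and neuron markers overlap between groups.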

How the data were processed

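Estimated counts and TPM per gene were deposited by the authors for 14 libraries. Per the submitters' processing notes, the tools were cutadapt 1.7.1, Trimmomatic 0.32, Bowtie2 2.1.0, TopHat2 2.0.9, SAMtools 0.0.19, bedtools and RSEM 1.2.11, with build mm10. The labels list 19 samples, and 5 are not analysed here. Groups came from sample titles, with table columns matched by name (footprint columns named rpf to samples titled ribo). The deposited values are not plain counting data. The lowest TPM is 0.880 in RNA and 0.928 in footprints. Genes with mean counts of 20 to 50 varied less than a Poisson count, whose variance over mean is 1 on average. The mean of this ratio over genes was 0.638 for KO RNA, 0.589 for WT RNA, 0.304 for KO footprints and 0.292 for WT footprints. The medians, which fall below 1 also for Poisson counts in so few libraries, were 0.380, 0.406, 0.158 and 0.174 in that order. The contrast of libraries numbered 1 and 2 with 3 and 4 held 2.28% of the within-group variance in RNA and 3.93% in footprints, against 20% for an average direction. No source used here states the step behind this. The p-values take no account of it and may be too small, and no counting intervals are given.

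Estimated counts were rounded and tested on all genes with edgeR 4.0.16 in R 4.3.3 (filterByExpr with minimum count 10, TMM, robust quasi-likelihood F-test, Benjamini-Hochberg adjustment over all genes tested, threshold 0.05). Every adjusted p is from this test unless DESeq2 1.42.0 or limma 3.58.1 (log2(TPM + 1), pseudocount 1) is named. Fold changes are KO against WT, with an SE taken as the size of the log2 change divided by the root of its F statistic. Translational efficiency was tested by an assay-by-genotype interaction in 1 model of the 14 libraries, with no term for the shared lysate. Replicates are pools of mice per the labels. Libraries with the same number did not deviate together across genotypes (r from -0.47 to 0.04). RNA and footprints of 1 lysate also had low values (r from -0.05 to 0.20). A low r in these deposited values therefore cannot decide whether same-numbered libraries are pairs. No source used here states pairs across genotypes, and the main fit took none. Coordinates are RefSeq GRCm38.p6, and all 36 symbols matched. Members with an adjusted p under 0.05 are given in every library, and up to 4 genes with the smallest p of each other list are named. A result on 1 other gene is not reported here. The members and lists were chosen with earlier results of these data known. The test was also run on simulated counts. These varied more than Poisson counts, unlike the deposited low counts, so that run cannot show whether the p-values here are too small. Alternatives were other scalings, filters and tools, leaving out each library, replicate and lysate blocks, 1 fit over all libraries, a length trend removed and a covariate for replicate sets.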

Additional observations from a re-analysis of the deposited data

Results flagged for a closer look

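In 74 groups of 4 WT libraries (36 genes in each assay and the summed values), 3 held a library far from the other ones by the gap test of Dixon, where chance flags about 1 in 20 groups. Fuca1 footprints were lowest in WT replicate 4, at 15.8 TPM, against 17.7 to 18.1 TPM in the other 3 libraries. Tpp1 RNA was highest in WT replicate 1, at 82.7 TPM, against 76.3 to 76.7 TPM. Npc1 RNA was highest in WT replicate 2, at 64.6 TPM, against 57.9 to 58.9 TPM. KO groups of 3 were not tested.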

How the results depend on the processing

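In footprints, members called lower numbered 16 to 23 over the 17 alternatives and 0 were higher in each; the median log2 fold change ran from -0.19 to -0.14. Leaving out 1 library gave 17 to 21 lower members. Footprint changes below 0 numbered 34 without KO replicate 1, 35 without WT replicate 4 and with the replicate block, and 36 otherwise. The Asah1 call was lost only with the replicate block. In RNA, 2 members were lower with DESeq2, 1 with limma, 1 in 1 fit over all libraries and 1 without KO replicate 3, and leaving out a library gave 0 to 1. The RNA median was -0.14 with the replicate block and ran from -0.13 to -0.084 when a library was left out. The interaction called 0 members under every alternative run. The median log2 footprint per RNA ratio in WT was -0.098 from TPM and 0.20 from CPM, which share no scale. Same-numbered libraries were not shown to be pairs: with the replicate block 16 members were lower in footprints (Ctsl, Gusb, Arsa, Sgsh, Asah1 and Npc1 were lost) and 0 in RNA, and microglial markers called lower numbered 8 in footprints and 1 in RNA. The block also ended the call of Tfeb, the 1 higher sorting gene in footprints (adjusted p = 0.0523). With a covariate for replicate sets, added after the data were seen, 18 members were lower in footprints. With 3 and 4 libraries a group, differences near the SE of 0.065 in RNA could not be resolved.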
